A study of Mus musculus with 38 samples.

Results

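The mRNA levels of 10 genes that set CD4 and CD8 coreceptor expression were followed across 5 mouse CD8 T cell clones. The 10 genes are the coreceptor genes Cd8a, Cd8b1 and Cd4, and the factors Zbtb7b, Tox, Runx1, Runx3, Cbfb, Bcl11b and Satb1. They were chosen by symbol among 19938 distinct genes named on the array, and each of the 10 had exactly 1 probe set among the 23410 named probe sets. Clones sAg1 and sAg3 carry the phenotype label CD8IL13+ (CD8γ13 in the series design, written IL13+ here). Clones 8uvmo-2 and 8uvmo-3 are labelled CD8IL13- (Tc1 in the design, written IL13-negative here), and CD8bm1, labelled allo CD8, is a conventional alloreactive clone. Each clone was measured after 14 h on plates coated with anti-CD3 antibody (0.5 ug/ml), called activated, and at rest without that stimulus, called dormant. Dormant sAg1 and dormant sAg3 have 3 arrays and the other 8 groups 4 each, which gives 20 activated and 18 dormant arrays. Every line is a single clone, and nothing in the labels ties the arrays of a group to separate cultures, so the p-values reflect array-to-array spread, which may be technical.

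CD8 is a heterodimer of an alpha and a beta chain that binds MHC class I, while CD4 is a single chain that binds MHC class II. Both bring the kinase Lck to the T cell receptor. In the thymus ThPOK, the product of Zbtb7b, directs cells to the CD4 lineage, whereas RUNX proteins bound to their partner CBFβ silence Cd4 and Zbtb7b and support Cd8 genes in the CD8 lineage. TOX is required for the CD4 lineage, BCL11B for T cell commitment, and SATB1 organises chromatin loops and regulatory elements of these lineage genes.

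Values are deposited log2 probe set summaries, and levels of different probe sets were not set against each other. Values below 7, near the median of all named values (6.91), were treated as near background, and a difference against such a group can be compressed by it. Each probe set was fitted with limma over all 10 groups, with Benjamini-Hochberg adjustment over the 23410 named probe sets. A change was accepted at an adjusted p under 0.05, and a gene was called where its log2 difference also reached 1 and, over several clones, the clones separated or moved the same way. Array medians were 7.01 to 7.09 in activated and 6.58 to 6.70 in dormant arrays. The median named probe set was therefore 0.35 higher in activated than in dormant arrays (0.33 to 0.38 within clones). Activation differences are also given relative to that shift. The shift depended on level. Over the 5 clones its median was 0.43 to 0.57 for probe sets with means under 7, and between 0.05 and -0.12 above 8. Cd8a, Cd8b1, Runx1, Runx3, Cbfb, Bcl11b and Satb1 have means above 8. For them, values relative to 0.35 or with centred arrays lie lower than values relative to probe sets of like level. The T cell genes Cd3e, Cd3d, Cd3g and Thy1 had group means between 10.74 and 13.57. Cd2 of the same list was below 7 in sAg3 (6.65 activated, 5.80 dormant) and CD8bm1 (6.46 and 5.59), and above 8 in the other clones. The thymocyte genes Rag1, Rag2, Dntt and Ptcra were below 7 in every group. Replicates 1 and 3 of dormant 8uvmo-2 stood apart from replicates 2 and 4 in several of the 10 genes. The largest gaps between these pairs were -0.43 for Runx3 and -0.42 for Cd4 (replicates 1 and 3 minus 2 and 4). How many of all named probe sets split this way was not counted, so nothing particular to these genes is read from it. Values without either pair are given where they end a call.

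The RefSeq promoter table (GRCm38.p6) holds 7 of the 10 genes, with 14 transcript starts; Cd4, Cd8b1 and Tox are not in it. The 250 bases before each start were searched on both strands. The RUNX core was spelled TGTGGT or, with its other central base, TGCGGT. The core bound by GATA factors was spelled AGATAA or, with its other first base, TGATAA, and the TCF/LEF core was CTTTGA. No match overlapped another in these windows. The RUNX core was found in 2 of the 14 windows, before the first listed Runx3 start and the second listed Zbtb7b start, against 18.6% of all 32851 windows of this length. The GATA core was in 0 of 14 windows and in 16.6% of all windows. The TCF/LEF core was in 1 of the 14, at Bcl11b, and in 13.8% of all windows. The windows that hold a match are shown 5′ to 3′ on the strand of the gene, each ending next to the start, with matches in capitals. They concern the factor that responds to RUNX proteins (Zbtb7b), the main RUNX gene of CD8 cells (Runx3) and the gene that fell furthest on activation (Bcl11b).
Runx3, chr4:135120395-135120644 (+ strand): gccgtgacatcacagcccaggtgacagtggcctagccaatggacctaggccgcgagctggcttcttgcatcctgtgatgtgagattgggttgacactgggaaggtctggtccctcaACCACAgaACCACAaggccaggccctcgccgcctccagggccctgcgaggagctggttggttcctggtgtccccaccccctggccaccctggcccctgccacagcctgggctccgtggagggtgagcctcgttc
Zbtb7b, chr3:89387672-89387921 (- strand): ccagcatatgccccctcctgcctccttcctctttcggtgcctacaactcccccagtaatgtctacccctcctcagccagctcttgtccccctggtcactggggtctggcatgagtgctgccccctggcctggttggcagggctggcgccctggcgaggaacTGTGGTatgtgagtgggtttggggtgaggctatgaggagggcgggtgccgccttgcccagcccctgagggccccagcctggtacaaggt
Bcl11b, chr12:108003415-108003664 (- strand): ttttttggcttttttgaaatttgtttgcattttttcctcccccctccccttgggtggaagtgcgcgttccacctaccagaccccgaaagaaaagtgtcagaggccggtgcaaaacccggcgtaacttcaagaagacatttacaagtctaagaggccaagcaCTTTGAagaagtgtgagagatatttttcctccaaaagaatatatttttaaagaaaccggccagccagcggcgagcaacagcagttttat
In Runx3 the core stands as its reverse complement at -134 and again at -126, counted from the transcript start. In Zbtb7b the match lies at -89 and in Bcl11b the TCF/LEF match also lies at -89. A match describes letters in the window and no binding was measured.

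The CD8 chain genes stayed high in every clone and state, from 11.04 to 12.90 for Cd8a and from 11.45 to 12.99 for Cd8b1. Cd8a, the alpha chain, measured 12.88, 12.87, 12.90 and 12.65 in activated sAg1, against 11.04, 11.32 and 11.30 in dormant sAg1. No activated array reached down to a dormant one, and Cd8a rose by 1.61 ± 0.07 (log2, SE; adjusted p 1.68e-19, limma), or 1.23 above the median shift of that clone. In sAg3 the Cd8a values were 12.26, 12.42, 12.40 and 12.27 when activated, against 12.21, 12.14 and 12.24 when dormant. The sAg3 groups lay close together, with a difference of 0.14 ± 0.07 (adjusted p 0.0682), which turns to -0.27 with centred arrays (adjusted p 0.0023). Cd8a also rose in 8uvmo-2 (0.76 ± 0.06, adjusted p 2.43e-12) and 8uvmo-3 (0.66 ± 0.06, adjusted p 6.35e-11). In CD8bm1 it averaged 11.93 ± 0.12 when activated and 11.57 ± 0.10 when dormant (SD, n = 4 each). That gap of 0.36 passed the test (adjusted p 6.4e-06, limma). It is close to the median shift of that clone and turns to -0.045 with each array centred on its median. Probe sets with means above 11, as Cd8a has, had a median activation difference of -0.12 over all clones. Quantile normalization did not change the sign of the Cd8a difference in CD8bm1 or sAg3. The order of clones differed by state: among activated cells sAg1 was highest with 8uvmo-3 overlapping it and CD8bm1 was lowest, while among dormant cells sAg3 was highest, 8uvmo-3 overlapped it and sAg1 was lowest. sAg3 was thus lower than sAg1 by 0.49 when activated (adjusted p 1.24e-07), and higher than sAg1 by 0.98 when dormant (adjusted p 3.67e-13). The dormant gap passed 1 (1.005 to 1.03) without dormant sAg1 replicate 2 or 3 or dormant sAg3 replicate 2, and would then be called.

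Cd8b1, the beta chain, moved little on activation. Over the 5 clones it averaged 12.38 in activated and 12.12 in dormant cells, a difference of 0.26 ± 0.03. It is 0.09 under the median shift and becomes -0.14 with centred arrays. Probe sets with means above 11, as Cd8b1 has, had a median of -0.12, and quantile normalization did not change its sign. The rise above the median shift of all probe sets was in sAg1, with 12.96, 12.94, 12.99 and 12.71 in activated against 12.35, 12.37 and 12.37 in dormant arrays (0.54 ± 0.06, adjusted p 3.38e-09). These sAg1 groups did not overlap. Between clones the beta chain was more separated than within them: IL13+ clones exceeded IL13-negative clones by 0.72 ± 0.04 when activated and by 0.64 ± 0.04 when dormant, with adjusted p 2.28e-16 and 2.88e-14. Clone 8uvmo-3 was lowest in both states, at 11.78 ± 0.03 when activated and 11.51 ± 0.04 when dormant (SD, n = 4 each), and its dormant arrays did not overlap those of any other clone.

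**Figure D1:**
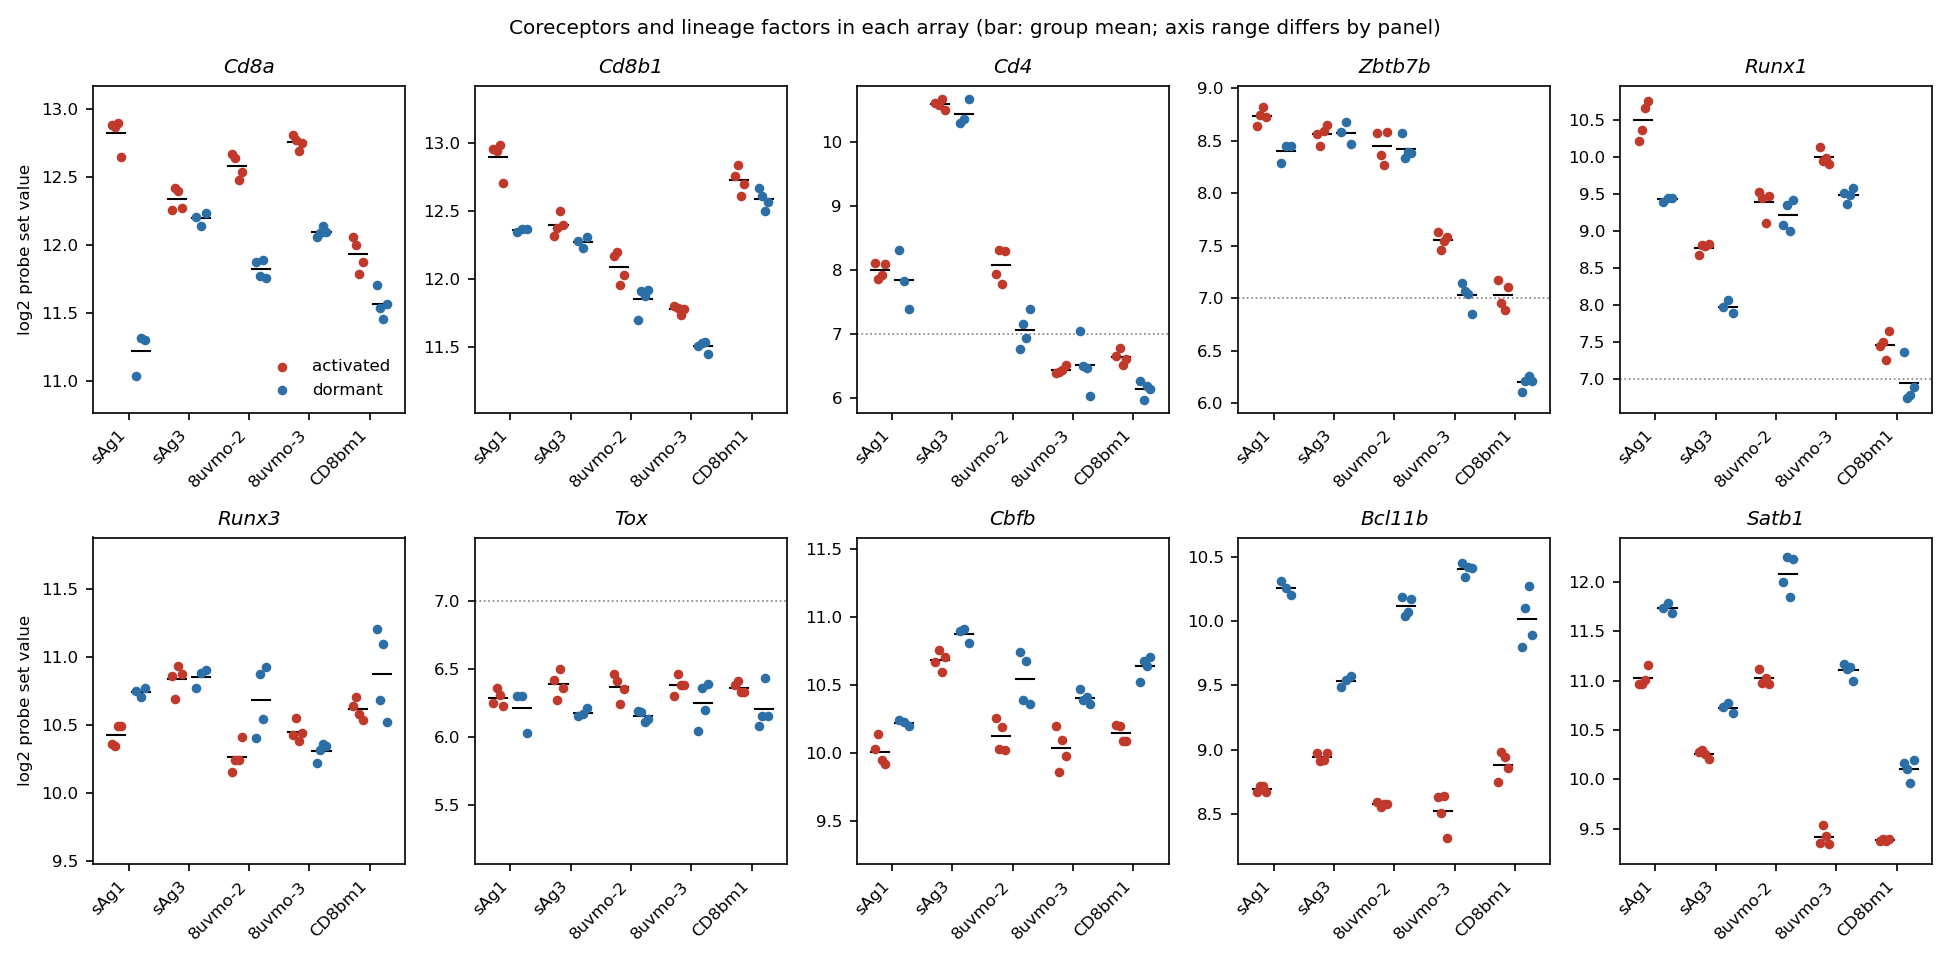
Log2 probe set values (vertical axis, range differs by panel) of the 10 genes in every array, by clone, with activated arrays in red left of dormant arrays in blue, group means as bars and the near-background level of 7 as a dotted line. Cd4 is highest in sAg3 in both states, Bcl11b is lower in activated than in dormant arrays of every clone, and all Tox points lie below 7.

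Cd4 separated the clones more than any other of the 10 genes, with 4.44 between its highest and lowest group mean. In activated sAg3 it measured 10.61, 10.58, 10.68 and 10.50, and in dormant sAg3 10.30, 10.37 and 10.67. No array of another clone came above 8.32, so sAg3 stood apart in both states. Activated sAg1 had 8.12, 7.87, 7.93 and 8.10, and dormant sAg1 had 8.32, 7.83 and 7.39. sAg3 exceeded sAg1 by 2.59 ± 0.16 when activated and by 2.60 ± 0.18 when dormant, with adjusted p 1.49e-15 and 5.82e-14. In 8uvmo-2 the values were 7.95, 8.32, 7.79 and 8.30 when activated, against 6.77, 7.16, 6.95 and 7.39 when dormant. These groups did not overlap, and 8uvmo-2 had the one called Cd4 activation difference (1.02 ± 0.16, adjusted p 6.81e-07). It is 0.65 above the median shift. Replicates 1 and 3 were below 2 and 4 in both states (by 0.44 when activated and 0.42 when dormant), and the difference was 1.01 within replicates 1 and 3 and 1.03 within 2 and 4. With the replicate number as a block it stayed called (adjusted p 9.59e-05). It falls below 1 with unequal arrays, to 0.82 without dormant replicates 1 and 3 and to 0.92 to 0.98 without dormant replicate 1 or 3 or activated replicate 2 or 4, and to 0.63 with centred and 0.83 with quantile-normalized arrays. Clones 8uvmo-3 and CD8bm1 stayed near background. 8uvmo-3 ran from 6.39 to 6.53 when activated and from 6.04 to 7.05 when dormant. CD8bm1 ran from 6.52 to 6.79 when activated and from 5.98 to 6.28 when dormant.

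Genes of other cells that carry CD4 were read beside this. Of 12 macrophage and dendritic cell markers, 2 reached 7 in sAg3 in both states, Itgax and Cd68, and their summed level (log2) ran from 11.81 to 12.04 in activated and from 11.74 to 11.76 in dormant sAg3. The range over the other clones was 9.84 to 11.30 when activated and 10.51 to 12.01 when dormant. Itgax averaged 11.37 in activated and 11.20 in dormant sAg3, and 8.65 and 7.5 in sAg1. In the same order of states it averaged 10.1 and 10.72 in 8uvmo-2, 5.96 and 5.35 in 8uvmo-3, and 10.28 and 10.59 in CD8bm1. In dormant sAg1 the lysozyme gene Lyz2 of this list reached 7 as well, with 8.75, 9.08 and 9.94, against group means of 4.95 to 6.02 in the other dormant clones. Activated sAg1 averaged 6.16 for it. The remaining markers of the list, Csf1r, Adgre1, Cd14, Fcgr1, C1qa, C1qb, Mrc1, Flt3 and Xcr1, were below 7 in every group. Of the helper genes, Cd40lg, Cxcr5 and Foxp3 were below 7 in every group as well, but not every gene of that list was. Whether other cells take part in the Cd4 level was not tested.

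Zbtb7b, which encodes ThPOK, was lowest in CD8bm1. It measured 7.17, 6.95, 6.89 and 7.11 in activated and 6.11, 6.21, 6.26 and 6.21 in dormant CD8bm1. These groups did not overlap, with a rise of 0.83 ± 0.08 (adjusted p 2.72e-11), although the dormant arrays were near background. Relative to the median shift of that clone the rise was 0.48. The 8uvmo-3 clone came next, with 7.63, 7.46, 7.54 and 7.58 when activated, against 7.14, 7.07, 7.04 and 6.85 when dormant. It rose by 0.53 ± 0.08 (adjusted p 2.22e-07), or 0.155 above the median shift of that clone. The clones sAg1, sAg3 and 8uvmo-2 ran from 8.27 to 8.82 in both states together, and neighbours in their order overlapped. In sAg1 Zbtb7b rose by 0.33 ± 0.08 (adjusted p 0.000554, limma). That was -0.042 relative to the median shift of the clone and became -0.074 with centred arrays. In sAg3 and 8uvmo-2 the activation differences were -0.01 ± 0.08 and 0.03 ± 0.08 and did not pass the test; with centred arrays the 8uvmo-2 difference was -0.37 (adjusted p 0.0001947). The 2 IL13-negative clones thus lay apart: 8uvmo-2 exceeded 8uvmo-3 by 0.89 ± 0.08 when activated and by 1.39 ± 0.08 when dormant, with adjusted p 2.02e-11 and 1.02e-16. Tox was between 6.03 and 6.50 on all 38 arrays, so its differences were those of a probe set near background. They changed sign with centred arrays and after quantile normalization (-0.24 and -0.35 over the 5 clones, against 0.16 ± 0.03 as deposited).

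Of the RUNX genes, Runx1 spanned 3.56 between its highest and lowest group mean and Runx3 spanned 0.61. Runx1, which represses Cd4 in immature thymocytes, was lowest in CD8bm1, with 7.44, 7.49, 7.25 and 7.65 in activated and 7.36, 6.74, 6.78 and 6.88 in dormant arrays. Replicate 1 of dormant CD8bm1 stood above the other dormant arrays and within the activated range. In sAg3 Runx1 had 8.67, 8.81, 8.79 and 8.82 when activated, against 7.97, 8.06 and 7.89 when dormant, with no overlap (0.80 ± 0.13, adjusted p 1.49e-06). In sAg1 it had 10.21, 10.37, 10.66 and 10.76 when activated, against 9.39, 9.45 and 9.45 when dormant. That gap was called (1.07 ± 0.13, adjusted p 5.04e-09), but was 0.98 without activated replicate 4 and 0.66 with centred arrays. The difference in 8uvmo-2, 0.17 ± 0.12, did not pass the test. sAg3 was below sAg1 by 1.73 ± 0.12 when activated and by 1.46 ± 0.14 when dormant (adjusted p 2.36e-14 and 5.85e-11).

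Runx3, the factor that silences Cd4 in CD8 cells, ran from 10.15 to 10.93 in activated and from 10.22 to 11.20 in dormant arrays. Over the 5 clones it was lower after activation by 0.17 ± 0.05 (adjusted p 0.00105), with falls that passed the test in 8uvmo-2 (-0.42), sAg1 (-0.32) and CD8bm1 (-0.26). The dormant groups of 8uvmo-2 and CD8bm1 had the widest spreads (SD 0.25 and 0.32), since replicates 1 and 3 differed from 2 and 4 in both. In dormant CD8bm1 the values were 11.20, 10.68, 11.09 and 10.52, and in dormant 8uvmo-2 10.40, 10.87, 10.54 and 10.92. The sAg3 level did not differ between states (-0.01 ± 0.11, adjusted p 0.925). Cbfb, the non-DNA-binding partner of RUNX proteins, fell in all 5 clones, by 0.34 ± 0.03 on average (adjusted p 6.71e-11), or -0.69 relative to the median shift. It was highest in sAg3, with 10.67, 10.76, 10.60 and 10.71 in activated and 10.90, 10.91 and 10.81 in dormant arrays. Neither group overlapped another clone of its state. sAg3 exceeded sAg1 by 0.68 ± 0.08 when activated and by 0.65 ± 0.09 when dormant. In the mouse gene table Cbfb lies on chromosome 8. Among probe sets with a mean of at least 9, the 276 of chromosome 8 had a median sAg3 minus sAg1 difference of 0.29 in activated and 0.37 in dormant cells, against -0.11 and -0.03 for the 4755 on other chromosomes. The part of the Cbfb difference that goes with this was not tested.

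Bcl11b had lower values in all 20 activated arrays than in all 18 dormant ones. It measured 8.67, 8.72, 8.72 and 8.67 in activated sAg1, against 10.31, 10.26 and 10.20 in dormant sAg1. In sAg3 it measured 8.97, 8.91, 8.92 and 8.97 when activated, against 9.49, 9.54 and 9.57 when dormant. In 8uvmo-3, with the widest gap, it measured 8.63, 8.51, 8.64 and 8.31 when activated, against 10.45, 10.34, 10.42 and 10.41 when dormant. In every clone the activated and dormant groups did not overlap. sAg3 had both the highest activated and the lowest dormant mean, though its activated arrays overlapped those of CD8bm1. Over the 5 clones Bcl11b fell by 1.34 ± 0.03 (adjusted p 3.73e-27), which is -1.69 relative to the median shift. By clone the difference was -1.88 in 8uvmo-3, -1.56 in sAg1, -1.54 in 8uvmo-2, -1.13 in CD8bm1 and -0.59 in sAg3, with adjusted p of 7.22e-08 in sAg3 and smaller in the other clones. With centred arrays the sAg3 fall reached the minimum of 1 and was then called.

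Satb1 also fell in all 5 clones, by 0.93 ± 0.03 on average (adjusted p 6.55e-24), or -1.28 relative to the median shift. In 8uvmo-3 it measured 9.35, 9.54, 9.42 and 9.34 when activated, against 11.17, 11.12, 11.14 and 11.00 when dormant. In 8uvmo-2 it measured 11.12, 10.98, 11.03 and 10.96 when activated, against 12.00, 12.25, 11.85 and 12.23 when dormant. The states were apart in both clones, with falls of 1.70 ± 0.07 and 1.06 ± 0.07 (adjusted p 1.28e-20 and 2.38e-15). The 8uvmo-2 fall was 0.90 without dormant replicates 2 and 4, 0.85 without these numbers in both states and 0.96 after quantile normalization, so it was then not called. In sAg1, CD8bm1 and sAg3 Satb1 fell by 0.71, 0.72 and 0.46. With centred arrays the falls in sAg1 and CD8bm1 were 1.12 and 1.13 and were called. CD8bm1 had the lowest level in both states, with 9.37, 9.39, 9.37 and 9.39 when activated and 10.16, 10.10, 9.96 and 10.19 when dormant. Activated 8uvmo-3 overlapped activated CD8bm1, whereas dormant 8uvmo-3 and dormant CD8bm1 did not overlap.

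The calls were set beside those of all named probe sets. Over the 5 clones all 10 genes passed the adjusted p, as did 90.3% of all probe sets. Of the 10, 1 was called, Bcl11b, against 6.19% of all probe sets. In sAg1 the called genes were Cd8a, Runx1 and Bcl11b (3 of 10, against 10.8% of all). In 8uvmo-2 they were Cd4, Bcl11b and Satb1 (3 of 10, against 11.9%). In 8uvmo-3 they were Bcl11b and Satb1 (2 of 10, against 10.1%), and in CD8bm1 Bcl11b (1 of 10, against 7.25%). In sAg3 0 of the 10 were called, against 5.01% of all probe sets, although 5 passed the adjusted p (73.0% of all) and 5 an unadjusted p under 0.05 in limma.

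**Figure D2:**
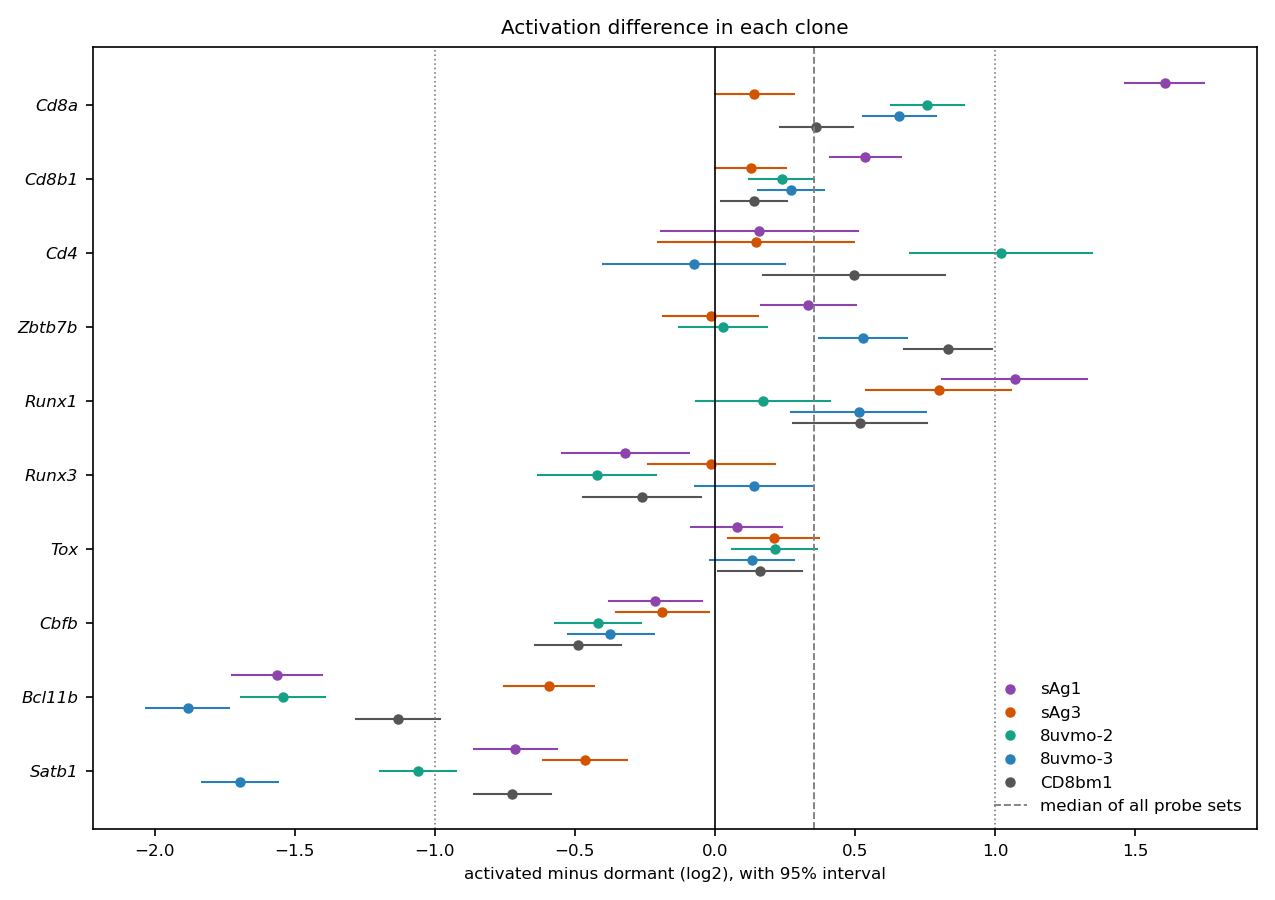
Activated minus dormant difference (log2, horizontal axis) of each gene in each clone, with 95% intervals; dotted lines mark -1 and 1 and the dashed line the median of all probe sets over the 5 clones (0.35). Bcl11b and Satb1 lie left of 0 in every clone, with sAg3 nearest to 0, and Cd8a reaches 1.61 in sAg1.

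Comparing the IL13+ with the IL13-negative clones asks which genes go with the IL13 phenotype. Among activated cells 0 of the 10 genes were called (1.75% of all probe sets), with 7 past the adjusted p (30.7% of all) and 7 past an unadjusted p under 0.05 in limma. Cd4 averaged 9.30 in activated IL13+ and 7.27 in activated IL13-negative clones, but sAg1 (8.00 ± 0.12, SD, n = 4) lay below 8uvmo-2 (8.09 ± 0.26, n = 4), so the clones did not separate. Under the minimum, but past the adjusted p with the clone means apart, were Cd8b1 (0.72), Zbtb7b (0.65) and Bcl11b (0.27). Runx3, Cbfb and Satb1 passed the adjusted p with the clone means not apart. Among dormant cells Cd4 was the called gene, 1 of 10 against 3.35% of all. It averaged 9.15 in dormant IL13+ and 6.79 in dormant IL13-negative clones, a difference of 2.35 ± 0.12 (adjusted p 1.01e-17). Dormant sAg3 averaged 10.45, and dormant sAg1 7.85. With the clone mean as the replicate the adjusted p was 0.736. Smaller differences in dormant cells were 0.77 for Zbtb7b, 0.64 for Cd8b1, -0.65 for Runx1, -0.37 for Bcl11b and -0.37 for Satb1, all past the adjusted p, as were 37.4% of all probe sets. Of these 5, the clone means were apart for Cd8b1. Runx3 (0.30, clone means apart) and Cd8a (-0.25, not apart) passed the adjusted p as well.

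Against the alloreactive clone CD8bm1 the same 4 genes were called as higher in IL13+ clones in both states. They were Cd4, Zbtb7b, Runx1 and Satb1, 4 of 10 against 3.67% of all probe sets when activated and 7.26% when dormant. Zbtb7b averaged 8.65 in activated IL13+ clones and 7.03 in activated CD8bm1 (difference 1.62 ± 0.07), and was higher by 2.29 ± 0.07 when dormant. Runx1 was higher by 2.18 ± 0.10 when activated and by 1.76 ± 0.11 when dormant. Satb1 was higher by 1.26 ± 0.06 when activated and by 1.13 ± 0.06 when dormant, and Cd4 by 2.65 ± 0.14 and 3.00 ± 0.15. All 8 adjusted p were at most 8.17e-16. Between activated IL13-negative clones and CD8bm1, Runx1 was the called gene (2.23 ± 0.10, 1 of 10 called against 4.72% of all). Under the minimum, but past the adjusted p with the clones apart, were Zbtb7b (0.97 ± 0.07, or 1.015 without activated CD8bm1 replicate 1), Satb1 (0.84 ± 0.06) and Cd8a (0.74 ± 0.06). When dormant, Runx1 (2.41), Zbtb7b (1.52) and Satb1 (1.49) were called as higher in the IL13-negative clones, 3 of 10 against 7.38% of all. Dormant CD8bm1 was itself near background for Runx1 (mean 6.94) and Zbtb7b, which can compress the differences against it. Cd8b1 was lower in IL13-negative clones than in CD8bm1, by 0.79 ± 0.05 when activated and by 0.91 ± 0.05 when dormant. CD8bm1 is 1 clone, so phenotype and clone cannot be told apart there.

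Clones of 1 phenotype also differed from each other. Between sAg3 and sAg1, Cd4 and Runx1 were called when activated (2 of 10, against 5.03% of all), and Cd4, Runx1 and Satb1 when dormant (3 of 10, against 7.54%). Satb1 was lower in dormant sAg3 than in dormant sAg1 by 1.01 ± 0.08, at the minimum, and by 0.99 without dormant sAg1 replicate 2 or dormant sAg3 replicate 3. Between 8uvmo-2 and 8uvmo-3, Cd4 and Satb1 were called when activated (2 of 10, against 3.10%), at 1.65 ± 0.16 and 1.61 ± 0.07. When dormant Zbtb7b was called (1 of 10, against 4.58%), and Satb1 was at 0.97 ± 0.07, or 1.13 without dormant 8uvmo-2 replicates 1 and 3 and at least 1.003 without either of them. Satb1 lies on chromosome 17 and Zbtb7b on chromosome 3. Probe sets there with a mean of at least 9 had median 8uvmo-2 minus 8uvmo-3 differences above 0. They were 0.252 activated and 0.266 dormant on chromosome 17, and 0.195 and 0.215 on chromosome 3. Other chromosomes had -0.007 to 0.005. The part of the Satb1 and Zbtb7b differences that goes with this was not tested.

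**Figure D3:**
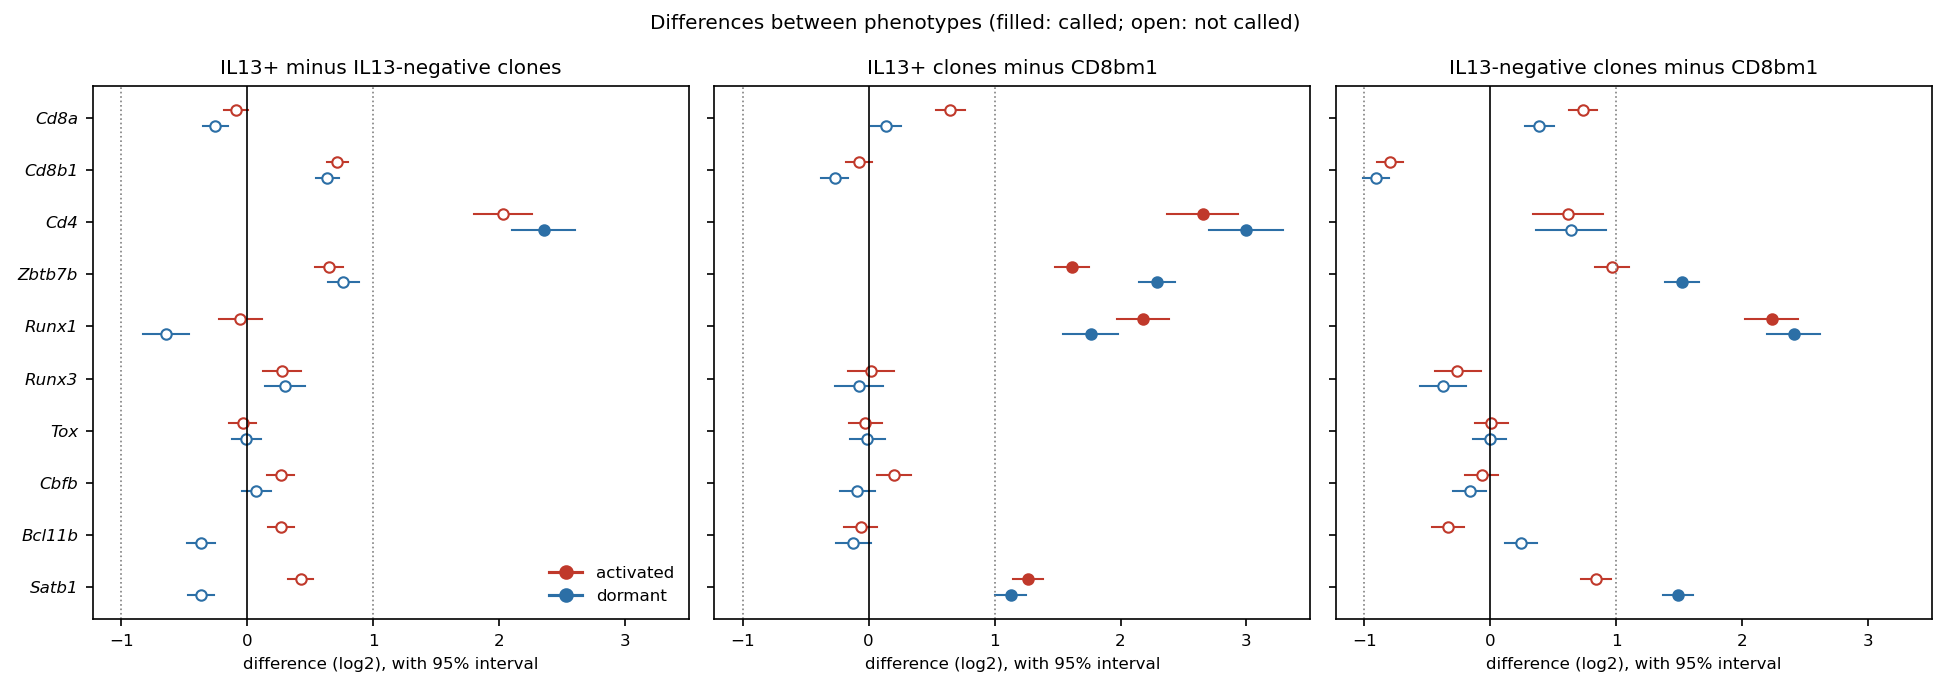
Differences between phenotypes (log2, horizontal axis) with 95% intervals for activated (red) and dormant (blue) cells; filled points were called and open points were not. The 4 genes called for IL13+ clones over CD8bm1 are Cd4, Zbtb7b, Runx1 and Satb1, and the left panel has the single filled point of dormant Cd4 at 2.35.

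The activation effect itself was compared between phenotypes with an interaction contrast. None of the 10 genes was called (0 of 10, against 1.95% of all probe sets), while 3 passed the adjusted p (20.9% of all) and 5 an unadjusted p under 0.05 in limma. Satb1 fell by 0.59 in IL13+ and by 1.38 in IL13-negative clones, a difference of 0.79 ± 0.07 (adjusted p 1.27e-10). Bcl11b fell by 1.08 in IL13+ and by 1.71 in IL13-negative clones, a difference of 0.64 ± 0.08 (adjusted p 6.90e-08). Runx1 rose by 0.94 in IL13+ and by 0.34 in IL13-negative clones, a difference of 0.59 ± 0.12 (adjusted p 0.0004). The clone effects of both sides were apart for Satb1 and Runx1. For Bcl11b they were not, since sAg1 (-1.56) fell further than 8uvmo-2 (-1.54). CD8bm1 is not part of this contrast. Its Satb1 difference of -0.72 was close to that of sAg1 (-0.71). Its Runx1 difference of 0.52 was close to that of 8uvmo-3 (0.51).

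The genes whose 10 group means ran most like those of a member were taken among 2210 genes with a span of at least 2. For Cd4 they were Mical2 (Pearson r 0.97), Agap1 (0.95) and Rab4a (0.95). For Zbtb7b they were Cd2ap (0.95), Acpp (0.94) and Eml1 (0.92), and for Runx1 Pkp4 (0.95), Pik3r5 (0.93) and Chst11 (0.93). For Satb1 they were Hcst (0.93), Zfp759 (0.90) and Rcbtb2 (0.90). The 10 means come from 5 clones in 2 states, so they are not independent points. Among the members themselves the highest correlation was between Runx3 and Cbfb (0.72), followed by Cd4 and Zbtb7b (0.71), over the same 10 means. The lowest were between Tox and Bcl11b (-0.81) and Cd8a and Bcl11b (-0.79). Tox was below 7 on all 38 arrays, and its group means spanned 0.235. Its activation differences changed sign with centred arrays, so no relation between Tox and Bcl11b is read from that value.

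Other regulators of T cell lineage were read from a list of 23 genes, of which 21 are named on the array. On activation over the 5 clones 7 were higher and 8 lower at the adjusted p, which 90.3% of all probe sets passed. Their median was -0.02, below the 0.35 of all probe sets, a shift that depended on level. With centred arrays 2 were higher and 16 lower. Myb, a factor of thymocyte survival, was higher after activation (9.72 against 8.32), Stat5a, a mediator of IL-2 and IL-7 signals, was higher (9.54 against 8.63), and Il7r, the IL-7 receptor, was lower (10.70 against 11.66), though its mean was higher in activated than dormant CD8bm1 (11.28 against 10.64) and close between states in sAg3 (11.67 against 11.79). Tle4, a Groucho corepressor, was lower as well (6.79 against 7.92). Between dormant IL13+ and IL13-negative clones 7 were higher and 10 lower, where 37.4% of all probe sets passed the adjusted p. Gata3, a factor needed for the CD4 lineage that acts upstream of Zbtb7b, averaged 10.03 in activated IL13+ and 8.93 in activated IL13-negative clones, and 10.15 and 9.24 when dormant. Ets1, a factor of T cell development, averaged 9.14 in dormant IL13+ and 10.41 in dormant IL13-negative clones, against 6.22 in dormant CD8bm1. Its dormant means were 9.95 in sAg1 and 8.33 in sAg3. Ikzf3 was lower in dormant IL13+ than in dormant IL13-negative clones (9.03 against 10.70). Its IL13+ mean rested on dormant sAg3 at 7.98, since dormant sAg1 at 10.07 was close to dormant 8uvmo-2 at 10.31. Id3 averaged 7.37 in dormant IL13+ and 5.67 in dormant IL13-negative clones, its IL13+ mean resting on dormant sAg1 at 9.04.

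**Figure D4:**
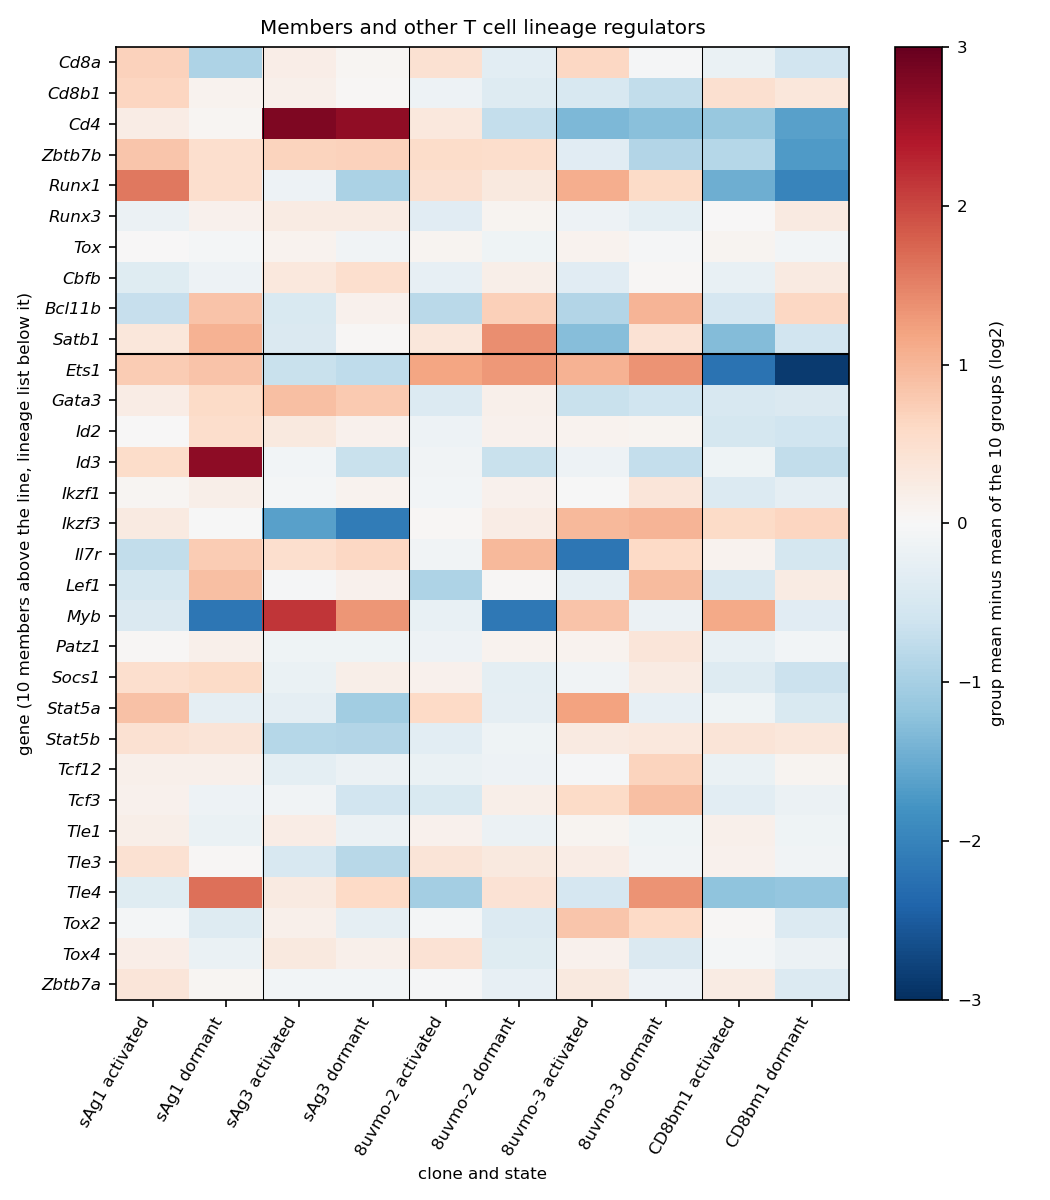
Group means minus the mean of the 10 groups (log2, colour from -3 to 3) for the 10 genes above the line and 21 other lineage regulators below it, with activated left of dormant in each clone. The Cd4 excess of sAg3 and the low Ets1 of CD8bm1 are the strongest red and blue blocks among their rows.

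Chromatin regulators, receptor partners and RUNX3-linked effector genes were counted in the same way on activation over the 5 clones. In that comparison 90.3% of all probe sets passed the adjusted p, so most list genes would pass by that share alone. Of 14 named chromatin genes 9 were higher and 3 lower (3 and 9 with centred arrays), led by the DNA methyltransferase gene Dnmt3a (10.20 in activated and 8.26 in dormant cells) and the demethylase gene Tet3 (9.60 and 8.70). Tet2 averaged 8.47 in dormant IL13+ clones against 5.61 in dormant CD8bm1, a difference of 2.86 ± 0.08. Of 12 receptor partners 4 were higher and 4 lower (1 and 8 with centred arrays), with Cd3g lower by 0.82 ± 0.04 and Cd3e by 0.48 ± 0.03. Of 9 effector genes linked to RUNX3 8 were higher and 1 lower (6 and 2 with centred arrays), among them Ifng (13.92 against 10.93) and Prf1, perforin (13.40 against 12.31). Crtam, a surface receptor of activated CD8 cells, was higher in activated than dormant 8uvmo-2 (11.39 against 5.50), but lower in activated than dormant sAg3 (7.19 against 8.00). Of 7 helper genes 6 were higher and 1 lower (5 and 1 with centred arrays), and the group means of 5 of the 7 stayed below 7.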

How the data were processed

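The deposited table holds log2 probe set values of 38 arrays. Partek and RMA are named in the submitters' processing notes; version, order and settings were not given in the sources used here. Per the labels, RNA was extracted with RNeasy and 100 ng was labelled with the Affymetrix WT Plus kit. Probe sets were named from the platform annotation, and 23410 of 35556 carried a gene name. Groups came from the labels. Arrays carry no read depth, so their number limits the precision.

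All named probe sets were fitted with limma (3.58.1, R 4.3.3) with 10 group means, moderated variances with a trend and contrasts of clone means. Errors of differences are standard errors, errors of group means are standard deviations, and tests are two-sided. The genes, lists and tests were chosen with earlier results of these data known. Named genes were all 10 members, up to 4 list members with the largest differences past the adjusted p, and the 3 most similar genes of each member with a span of at least 2; fewer are printed for the lists. Among the list genes, Tcf7, Runx2, Ncor1 and Lck are not analysed here. Deviations of same-numbered arrays of the 2 states correlated by -0.236 to 0.268 over 18 pairs. All 4 pairs of 8uvmo-2 were over 0.1 (0.113 to 0.237), so a blocked fit by replicate number was added for that clone after seeing the data. In the other 4 clones 3 of 14 pairs were over 0.1 and the numbers were not used as pairs. Alternatives covered the minimum difference, the clone condition, centring, quantile normalization, dim probe sets, variance prior, array weights, arrays left out and clone means. The steps were tested on simulated data.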

Additional observations from a re-analysis of the deposited data

Results flagged for a closer look

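In activated sAg1, replicate 4 had a Cd8a value of 12.65, apart from the other 3 arrays of that group at 12.87 to 12.90. It was 1 of 80 groups of 4 arrays in which the lowest or highest array was tested, and chance alone marks about 1 in 20 groups. The same array also had the lowest Cd8b1 value of the group, 12.71.

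The activation effect differed between IL13+ and IL13-negative clones for 3 genes, by the interaction contrast in limma. For Satb1 the difference was 0.79 (IL13+ minus IL13-negative, log2), with every clone falling and both IL13+ clones falling less than both IL13-negative clones. The smaller fall was not particular to IL13+ clones, since Satb1 changed by -0.72 in CD8bm1 and by -0.71 in sAg1. For Bcl11b it was 0.64 (0.636 before rounding), and sAg3 was the clone that fell least. For Runx1 it was 0.59 (0.592 before rounding), with a rise of 1.07 in sAg1 and 0.80 in sAg3 against 0.17 in 8uvmo-2 and 0.51 in 8uvmo-3. CD8bm1, outside the contrast, had a Runx1 rise of 0.52. The phenotype contrast rests on 2 clones a side, so the clone and the phenotype cannot be told apart.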

How the results depend on the processing

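Across 53 alternative settings 8293 values of the 170 member differences were computed, and 8160 kept their side of the call and either their direction or a value within 1 SD. Without the minimum difference, 7 members were called over the 5 clones, 10 in CD8bm1, 8 in sAg1, 5 in sAg3, 8 in 8uvmo-2 and 7 in 8uvmo-3, against 70.7% of all probe sets over the 5 clones and 73.0% to 82.5% within clones. Likewise 3 were called for IL13+ over IL13-negative clones in each state, 7 for activated and 9 for dormant IL13-negative clones over CD8bm1, 8 for activated and 6 for dormant sAg3 over sAg1, 6 for activated and 7 for dormant 8uvmo-2 over 8uvmo-3, and 2 for the interaction, against 13.1% to 37.8% of all. Without the clone condition, Cd4 was the 1 member called for activated IL13+ over IL13-negative clones, against 2.64% of all probe sets. With centred arrays 2 members were called over the 5 clones (Satb1 joining at -1.33), 1 in sAg3 and 2 in CD8bm1. The shares of all probe sets were 6.62%, 4.4% and 7.89%. Quantile normalization left 1 in 8uvmo-2 (9.49% of all) and gave 2 for activated IL13-negative clones over CD8bm1 (5.12% of all). For dormant 8uvmo-2 over 8uvmo-3, 2 were called with array weights (4.62% of all) and 2 without dormant 8uvmo-2 replicates 1 and 3 (5.16% of all). With clone means as replicates 0 were called for dormant IL13+ over IL13-negative clones, with 36 probe sets called in all. Leaving out 1 array gave 1 to 2 for dormant 8uvmo-2 over 8uvmo-3 and 1 to 2 for activated IL13-negative clones over CD8bm1.

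Centring turned 21 activation differences negative, 13 of them past the adjusted p. Over the 5 clones these were Cd8b1 (-0.14), Cd4 (-0.052), Zbtb7b (-0.06) and Tox (-0.24). In sAg1 they were Cd4 (-0.25), Zbtb7b (-0.074) and Tox (-0.33), and in sAg3 Cd8a (-0.27), Cd8b1 (-0.28), Cd4 (-0.27) and Tox (-0.20). In 8uvmo-2 they were Cd8b1 (-0.16), Zbtb7b (-0.37), Runx1 (-0.23) and Tox (-0.19), and in 8uvmo-3 Cd8b1 (-0.12), Runx3 (-0.25) and Tox (-0.25). In CD8bm1 they were Cd8a (-0.045), Cd8b1 (-0.27) and Tox (-0.25). Quantile normalization changed 9 signs, 6 past the adjusted p and all 6 of Tox: over the 5 clones (-0.35), in CD8bm1 (-0.37), sAg1 (-0.41), sAg3 (-0.31), 8uvmo-2 (-0.29) and 8uvmo-3 (-0.37). The other 3 were Cd4 in CD8bm1 (-0.015) and sAg1 (-0.006) and Runx3 in sAg3 (0.026). Both settings remove the overall shift by construction, and centring takes the same amount at every level although the shift depended on level. The replicate block, with a consensus correlation of 0.07, changed no call (Bcl11b over the 5 clones: -1.34). A block of the replicate number within 8uvmo-2 alone, added after seeing the data, kept its 3 calls. Another probe set per gene could not be tried, since each member has 1, and the filter on dim probe sets left Tox out. Tox, Cd4 in 8uvmo-3 and CD8bm1, and dormant Zbtb7b and Runx1 in CD8bm1 lie near background, which limits their differences.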
